A study of Mus musculus with 9 samples.

Results

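The breakdown of branched-chain amino acids and of propionate was followed through the RNA levels of 31 genes that encode its enzymes, regulators and cofactor-handling proteins. The members are the rows of the deposited tables whose gene symbol equals a listed one. All 31 were found among 24013 gene symbols. All 31 also passed the filter on low values, an RPKM of 1 or more in 3 or more of 9 libraries, which left 11542 genes to be tested. RPKM is the number of reads on the exons of a gene divided by their length in kilobases and by the depth of the library in units of 1000000 reads, so levels of different genes can be set side by side.

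The libraries were made from poly(A) RNA of adipocytes differentiated in the dish from stromal vascular cells of the inguinal fat of mice, the depot under the skin of the groin. The groups were F1 offspring of the strains 129X1/SvJ and C57BL/6J, the strain 129X1/SvJ (129) and the strain C57BL/6J (B6), with 3 libraries each at day 7. The series describes 129 as obesity-resistant and B6 as obesity-prone, and asks how genetic variation bears on the browning of such cells. Cells of every group had the same induction, 48 hours in 10% serum with the hormones insulin (850 nM) and T3 (1 nM), rosiglitazone (1 µM), dexamethasone (1 µM), indomethacin (125 nM) and isobutylmethylxanthine (0.5 mM), after which the last 3 were left out. Rosiglitazone, which activates the adipocyte regulator PPARG, was thus present throughout in all 3 groups. No label tells whether replicates were separate animals or cultures, the direction of the cross behind the F1, or the age or sex of the mice, so p-values describe the spread between these libraries, which may be technical.

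Leucine, isoleucine and valine share their first steps, a transamination in which they lose their amino group and an oxidative decarboxylation by the mitochondrial branched-chain ketoacid dehydrogenase complex. Their paths then part. Leucine carbon ends as acetyl-CoA and acetoacetate, while valine and part of isoleucine yield propionyl-CoA, which is carboxylated, epimerised and rearranged with the help of cobalamin (vitamin B12) to succinyl-CoA. Adipocytes are known to use branched-chain amino acids as a carbon source for lipid synthesis, and thermogenic fat is known to take them up and oxidise them in its mitochondria.

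Depth was 39686986 to 53410947 assigned reads in F1, 23710908 to 28473083 in 129 and 19130022 to 26931438 in B6, so every F1 library was deeper than every parental one. The 31 genes took 0.584% to 0.615% of the reads in F1 libraries, 0.544% to 0.571% in 129 libraries and 0.548% to 0.604% in B6 libraries. Each gene had 277 to 39553 reads in a library, and group means ran from 1.86 to 324 RPKM. The defining adipocyte genes (8 genes, among them Adipoq and Fabp4) summed to 33870 to 36280 RPKM in F1, 29870 to 32190 RPKM in 129 and 25790 to 29680 RPKM in B6, and those of hepatocytes to under 1 RPKM in every library. Fabp4 alone averaged 31350 RPKM in F1, 26910 RPKM in 129 and 23540 RPKM in B6, and of the 8 genes Cidec was higher and Adipoq and Retn were lower in 129 than in B6. The 31 genes lie on 16 chromosomes. The closest pair, Bckdk and Acadsb, is 3501 kb apart in mm9, the genome build of all gene coordinates given here.

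Between 129 and B6, 7 of the 31 genes were higher in 129, 10 were lower and 14 did not pass (limma, Benjamini-Hochberg adjusted p under 0.05 over all genes tested). This is 54.8% of the genes, against 37.5% of all genes tested, of which 15.9% were higher and 21.7% lower. The genes higher in 129 were Bcat1, Bckdhb, Dbt, Ppm1k, Mccc1, Oxct1 and Mut. Those lower in 129 were Bcat2, Ivd, Mccc2, Auh, Acat1, Acadsb, Abat, Pccb, Mcee and Mmab. The median log2 difference over the 31 genes was -0.12, beside -0.03 over all genes, and single genes ran from -0.85 for Bcat2 to 1.10 for Bckdhb. The 129 libraries lay above all B6 libraries for 7 genes (22.6%, against 20.8% of all genes) and below all of them for 14 (45.2%, against 29.0%). Some genes of consecutive steps were called on opposite sides, such as Mcee and Mut. So were Mccc1 and Mccc2, subunits of the same enzyme, but the Mccc1 call was lost in 7 of 16 other settings. For Bckdhb and for Pccb, the partner subunit did not pass. Log2 differences are differences of log2(RPKM + 1), which understate the change of genes near 1 RPKM, while folds and fractions of a level are ratios of group means of RPKM. Over all genes, 42.3% of the calls were on the higher side, and 53.2% after rescaling by median-of-ratios size factors, under which 8 of the 31 genes were higher and 8 lower. Under this rescaling 2255 of all 11536 genes tested were higher and 1987 lower, against 1834 and 2499 of 11542 without it.

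**Figure D1:**
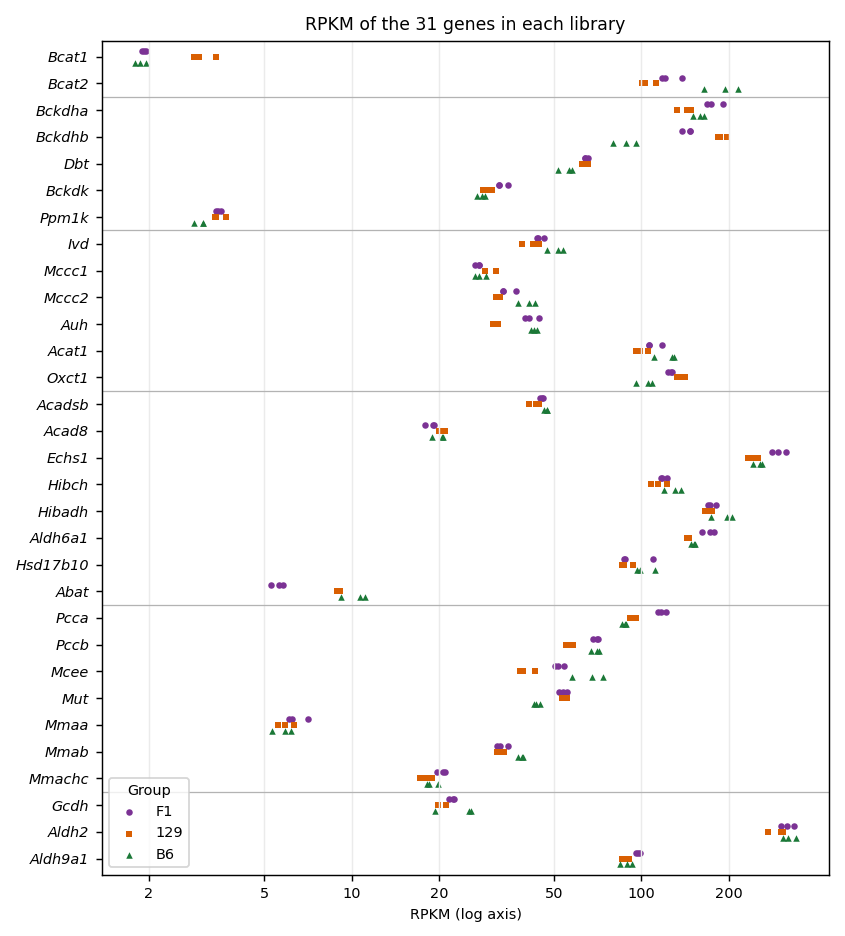
RPKM (log axis) of the 31 genes in the 9 libraries, with a point for each library, ordered from top to bottom by step of the pathway (grey lines part the roles). Aldh2 and Echs1 had the highest levels and Bcat1 and Ppm1k the lowest, and Bckdhb, Bcat2, Mcee and Abat show groups standing apart.

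**Figure D2:**
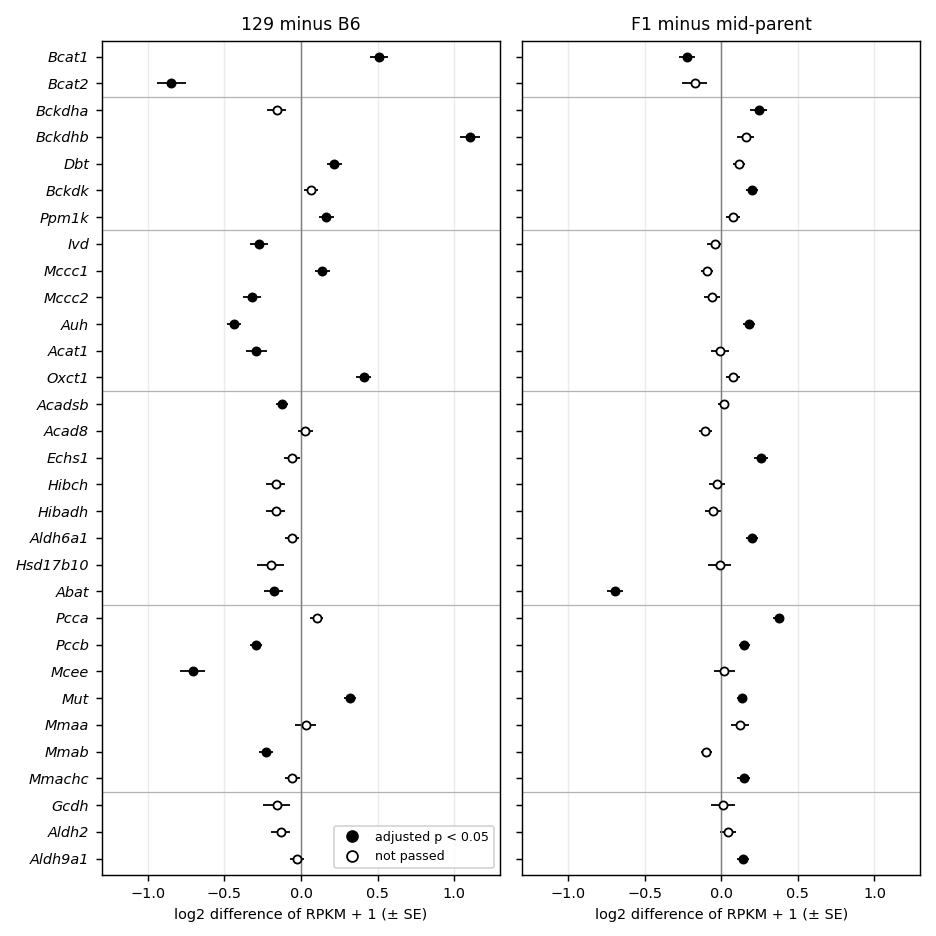
Log2 difference of RPKM + 1 with its standard error for each of the 31 genes, for 129 minus B6 (left) and for F1 minus the mean of the parental log2 values (right). Filled points passed an adjusted p of 0.05. Bckdhb stands highest and Bcat2 lowest on the left, and Pcca highest and Abat lowest on the right.

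Transamination is carried out by a cytosolic enzyme encoded by Bcat1 and a mitochondrial one encoded by Bcat2, and their RNAs went in opposite directions. In 129, the abundant Bcat2 was lower and the scarce Bcat1 higher than in B6. Bcat2 (chromosome 7, 52825523 to 52845080) had 138, 121 and 118 RPKM in F1 libraries, 101, 103 and 113 RPKM in 129 libraries and 195, 164 and 215 RPKM in B6 libraries. Every B6 library was above every F1 library, and every F1 library above every 129 library. The 129 mean was 0.551 of the B6 mean (log2 difference -0.85, SE 0.09, adjusted p = 5.01e-05) and the F1 mean 0.657 of it (-0.60, SE 0.09, adjusted p = 0.000974). The difference of F1 from 129 did not pass (0.25, SE 0.09, adjusted p = 0.0755). Exons of Bcat2 overlap those of 0610005C13Rik, a gene on the opposite strand with a mean of 0.555 RPKM, over 50 bases (2.27% of the exon length of Bcat2). The sources do not state whether reads were counted by strand. Bcat1 (chromosome 6, 144942355 to 145024677) had 1.95, 1.93 and 1.89 RPKM in F1 libraries, 3.40, 2.96 and 2.86 RPKM in 129 libraries and 1.94, 1.79 and 1.86 RPKM in B6 libraries. The 129 libraries stood above all others, while F1 and B6 overlapped. Bcat1 was 1.65-fold higher in 129 than in B6 (log2 difference 0.51, SE 0.06, adjusted p = 8.25e-05), and lower in F1 than in 129 (-0.48, SE 0.06, adjusted p = 0.000294). Within a library, Bcat1 stood at 0.0154 ± 0.00108 of Bcat2 in F1, 0.0293 ± 0.00423 in 129 and 0.00982 ± 0.00113 in B6 (SD, n = 3 each).

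Since the series names the transcription factor NFIA, promoter windows were searched for TTGGC or its reverse complement GCCAA, the half-site of the NFI family, and for AGGTCA or TGACCT, the half-site of nuclear receptors, on both strands. A window is the 250 bases before a start in RefSeq (build GRCm38.p6, another build than the gene coordinates above), and 26 of the 31 genes had at least 1, giving 32 windows. The NFI half-site was in 19 of these 32 windows (59.4%) and in 13637 of 32851 windows of all genes (41.5%), and the nuclear receptor half-site in 6 of 32 (18.8%) and 4607 of 32851 (14.0%). These are matches of letters and not measured binding. Where RefSeq lists several starts, the window shown is that of the start whose gene length is nearest to that of the deposited gene model. The window of Bcat2, the gene with the largest fall in 129, is at chr7:45569903-45570152 on the plus strand and holds 2 NFI half-sites, in capitals, and no nuclear receptor half-site.
Bcat2: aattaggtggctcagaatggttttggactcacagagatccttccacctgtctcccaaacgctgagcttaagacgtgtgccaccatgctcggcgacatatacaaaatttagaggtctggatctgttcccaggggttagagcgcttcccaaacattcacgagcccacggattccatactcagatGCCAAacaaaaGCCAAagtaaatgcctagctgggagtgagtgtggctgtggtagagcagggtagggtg

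The branched-chain ketoacid dehydrogenase complex consists of a decarboxylase with an alpha and a beta subunit (Bckdha and Bckdhb), an acyltransferase core (Dbt) and a dihydrolipoamide dehydrogenase that it shares with other complexes. The kinase encoded by Bckdk switches it off by phosphorylating the alpha subunit, and the phosphatase encoded by Ppm1k switches it on. Of these 5 genes, 3 were higher and none lower in 129 than in B6 (60.0% called, beside 37.5% of all genes), and 4 were higher and none lower in F1 than in B6 (80.0% called, beside 31.2% of all genes). Bckdhb (chromosome 9, 83842388 to 84017847) had 147, 147 and 138 RPKM in F1 libraries, 187, 184 and 198 RPKM in 129 libraries and 88.3, 79.9 and 95.6 RPKM in B6 libraries. The 3 groups did not overlap, with 129 highest, F1 between the parents and B6 lowest. Bckdhb was 2.15-fold higher in 129 than in B6 (log2 difference 1.10, SE 0.06, adjusted p = 3.96e-07), the widest gap among the 31 genes. In F1 it was 1.64-fold the B6 level (0.71, SE 0.06, adjusted p = 2.71e-05) and 0.761 of the 129 level (-0.39, SE 0.06, adjusted p = 0.00128), and its difference from the mid-parent value, which averages the log2 levels of both parents, did not pass (0.16, SE 0.06, adjusted p = 0.0618).

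RefSeq lists 2 starts for Bckdhb, 23644 bases apart, and the gene model of the deposited tables, with 11 exons, has the length of the one that begins downstream. The values are 1 number per gene, so the use of each start was not measured here. Both windows are shown because this gene differed most between the strains. The upstream one, at chr9:83924887-83925136 on the plus strand, holds 1 nuclear receptor half-site, in capitals. The downstream one, at chr9:83948531-83948780 on the plus strand, holds neither motif.
Bckdhb upstream start: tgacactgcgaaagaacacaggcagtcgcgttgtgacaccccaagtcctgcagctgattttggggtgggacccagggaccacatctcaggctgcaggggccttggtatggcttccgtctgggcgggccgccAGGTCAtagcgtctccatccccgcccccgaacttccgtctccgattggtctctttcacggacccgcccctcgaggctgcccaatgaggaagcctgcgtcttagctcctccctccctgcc
Bckdhb downstream start: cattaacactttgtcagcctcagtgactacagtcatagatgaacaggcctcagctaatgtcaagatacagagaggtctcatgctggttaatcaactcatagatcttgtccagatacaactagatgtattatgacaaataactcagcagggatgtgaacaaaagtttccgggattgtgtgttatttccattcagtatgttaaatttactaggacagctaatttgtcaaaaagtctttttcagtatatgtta

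The partner subunit did not follow. Bckdha (chromosome 7, 26414871 to 26443780) had 192, 174 and 168 RPKM in F1 libraries, 133, 144 and 149 RPKM in 129 libraries and 159.5, 151 and 165 RPKM in B6 libraries. The F1 libraries were above all others and the 129 libraries below all others. The difference of 129 from B6 did not pass (log2 difference -0.16, SE 0.06, adjusted p = 0.072), nor did that of F1 from B6 (0.17, SE 0.06, adjusted p = 0.0687). F1 was higher than 129 (0.32, SE 0.06, adjusted p = 0.00358) and than the mid-parent value (0.24, SE 0.05, adjusted p = 0.00912). Dbt (chromosome 3, 116215997 to 116252899) averaged 64.5 ± 0.794 RPKM in F1, 64.2 ± 1.53 RPKM in 129 and 55.1 ± 3.25 RPKM in B6 (SD, n = 3 each). It was higher than in B6 both in F1 (0.22, adjusted p = 0.00464) and in 129 (0.22, adjusted p = 0.00395).

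The RNA of the regulators varied little. The kinase Bckdk (chromosome 7, 135047587 to 135053178) averaged 33.1 ± 1.44 RPKM in F1, 29.4 ± 0.995 RPKM in 129 and 28.0 ± 0.945 RPKM in B6. It was higher in F1 than in B6 (0.23, adjusted p = 0.00334) and than in 129 (0.16, adjusted p = 0.0223, lost in 3 of 15 other settings), and 129 did not pass against B6 (0.07, adjusted p = 0.27). The phosphatase Ppm1k (chromosome 6, 57456496 to 57485420) was far scarcer, with 3.47 ± 0.0795 RPKM in F1, 3.48 ± 0.165 RPKM in 129 and 2.997 ± 0.129 RPKM in B6. It was higher than in B6 in F1 (0.16, adjusted p = 0.0344) and in 129 (0.17, adjusted p = 0.0254). The F1 call was lost in 7 of 14 other settings and the 129 call in 2 of 15.

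Ratios of subunits within a library do not depend on the depth or scaling of that library. They were chosen after the values had been seen, and are given as descriptions. Bckdhb stood to Bckdha as 0.767, 0.846 and 0.824 in F1 libraries, 1.41, 1.28 and 1.33 in 129 libraries and 0.553, 0.531 and 0.581 in B6 libraries. No group overlapped another, and the 129 mean was 2.41 times the B6 mean. Dbt stood to Bckdha as 0.364 ± 0.0278 in F1, 0.454 ± 0.0270 in 129 and 0.348 ± 0.00580 in B6 (SD, n = 3 each), with 129 above both others and F1 and B6 overlapping. For the regulators, Ppm1k to Bckdk was 0.105 ± 0.00644 in F1, 0.119 ± 0.00915 in 129 and 0.107 ± 0.00220 in B6, again with 129 above and the others overlapping.

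**Figure D3:**
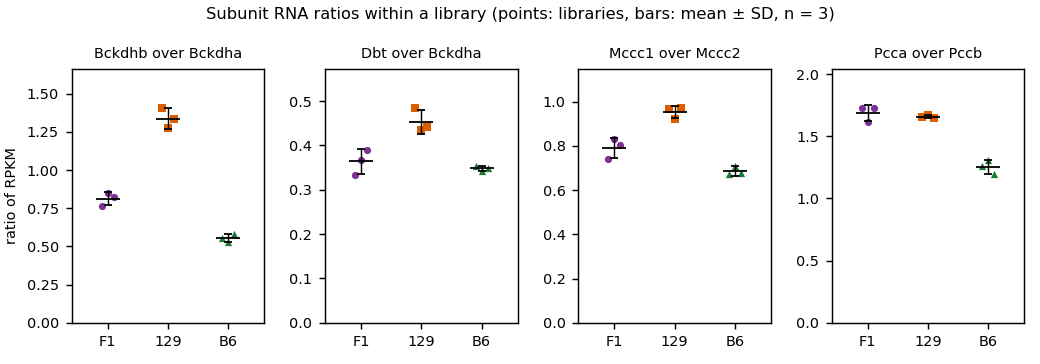
Ratio of RPKM of subunits of the same enzyme or enzyme complex within each library, by group, with points for libraries and bars for mean and SD (n = 3). In the first panel the 129 libraries lie between 1.28 and 1.41, F1 between 0.767 and 0.846 and B6 between 0.531 and 0.581. In the last panel F1 and 129 overlap and lie above B6.

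All 6 genes of the leucine branch passed between 129 and B6, 2 of them higher and 4 lower in 129, where 37.5% of all genes were called (15.9% higher and 21.7% lower). Ivd, isovaleryl-CoA dehydrogenase (chromosome 2, 118687736 to 118707093), had 46.3, 44.1 and 43.5 RPKM in F1 libraries, 38.8, 42.3 and 44.3 RPKM in 129 libraries and 51.7, 47.2 and 53.5 RPKM in B6 libraries. B6 libraries were above all others, and F1 and 129 overlapped. Ivd was lower in 129 than in B6 (log2 difference -0.28, SE 0.06, adjusted p = 0.00418) and in F1 than in B6 (-0.18, SE 0.06, adjusted p = 0.0406), the F1 call being lost in 8 of 15 other settings. The next enzyme, the biotin-dependent methylcrotonyl-CoA carboxylase, is built from the products of Mccc1 and Mccc2, which moved apart. Mccc1 (chromosome 3, 35858231 to 35899600) averaged 27.3 ± 0.488 RPKM in F1, 30.6 ± 1.53 RPKM in 129 and 27.7 ± 1.21 RPKM in B6. It was higher in 129 than in B6 (0.14, SE 0.05, adjusted p = 0.0404), where 1 library of 129 overlapped B6, and the call was lost in 7 of 16 other settings. Mccc2 (chromosome 13, 100718487 to 100785594) had 37.0, 33.3 and 33.3 RPKM in F1 libraries, 32.6, 31.4 and 32.5 RPKM in 129 libraries and 41.0, 37.4 and 42.9 RPKM in B6 libraries. Its B6 libraries were above all others and its 129 libraries below all others. It was lower in 129 (-0.32, SE 0.06, adjusted p = 0.00137) and in F1 (-0.22, SE 0.06, adjusted p = 0.0149) than in B6, the F1 call being lost in 5 of 15 other settings, median-of-ratios rescaling among them (adjusted p = 0.0559). The ratio of Mccc1 to Mccc2 was 0.792 ± 0.0446 in F1, 0.953 ± 0.0284 in 129 and 0.687 ± 0.0209 in B6 (SD, n = 3 each), with no overlap between the groups. Mccc1 shares 198 exon bases (6.65% of its exon length) with its antisense gene Mccc1os, and reads of these bases cannot be told apart if strand was not used. Mccc1os had a mean of 0.0868 RPKM, beside 28.55 RPKM for Mccc1.

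Auh encodes methylglutaconyl-CoA hydratase, which also binds RNA (chromosome 13, 52930479 to 53025046). It had 44.2, 41.1 and 39.5 RPKM in F1 libraries, 31.9, 31.1 and 30.8 RPKM in 129 libraries and 43.6, 41.7 and 42.6 RPKM in B6 libraries. The 129 libraries were below all others, and F1 and B6 overlapped. Auh was lower in 129 than in B6 (log2 difference -0.44, SE 0.05, adjusted p = 3.15e-05) and higher in F1 than in 129 (0.40, SE 0.05, adjusted p = 0.000143). The branch ends in acetoacetate and its use. Acat1, the mitochondrial acetoacetyl-CoA thiolase (chromosome 9, 53388627 to 53418455), had 118, 106 and 106 RPKM in F1 libraries, 98.6, 96.0 and 105 RPKM in 129 libraries and 128, 111 and 129.7 RPKM in B6 libraries. All 129 libraries lay below all B6 libraries, and it was lower in 129 (-0.29, SE 0.07, adjusted p = 0.00655), whereas F1 did not pass against B6 (-0.15, SE 0.07, adjusted p = 0.115). Oxct1, the CoA transferase that activates acetoacetate (chromosome 15, 3976428 to 4105344), had 124, 128 and 126 RPKM in F1 libraries, 139, 133 and 142 RPKM in 129 libraries and 106, 96.1 and 109 RPKM in B6 libraries. The groups did not overlap, and F1 lay between the parents. Oxct1 was higher than in B6 in 129 (0.41, SE 0.05, adjusted p = 0.000117) and in F1 (0.28, SE 0.05, adjusted p = 0.00222). It shares 422 exon bases (12.1%) with BC037032 on the opposite strand, a gene with a mean of 0.0883 RPKM.

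**Figure D4:**
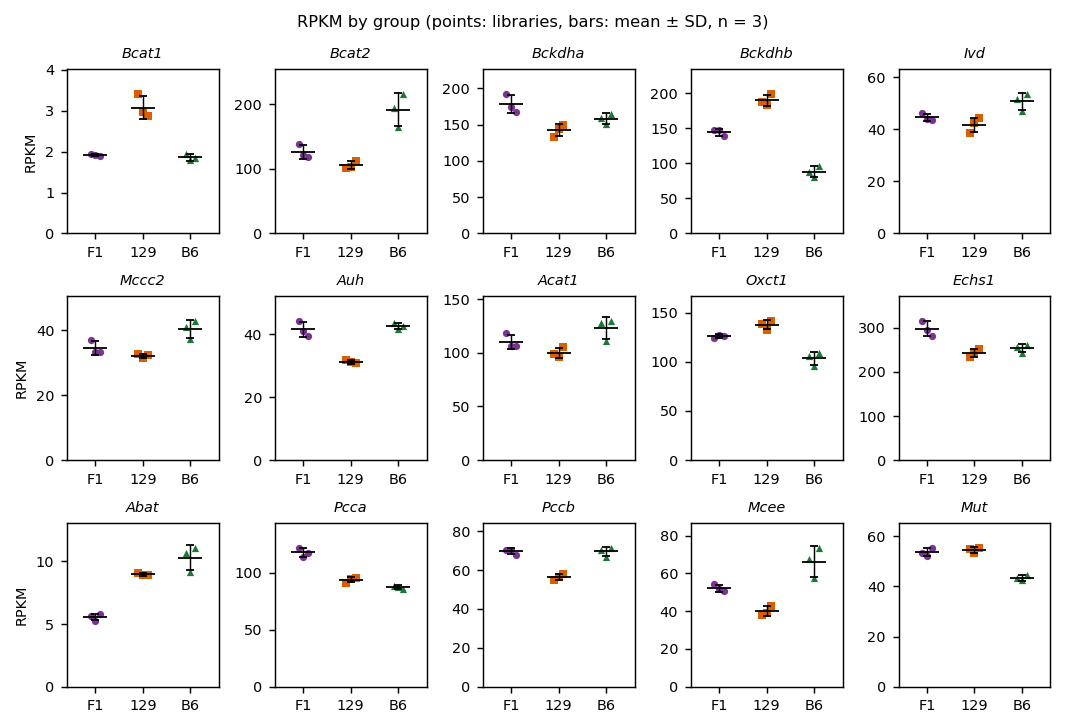
RPKM by group for the 15 genes that passed a moderated F-test over the groups and whose highest group mean was at least 1.2 times the lowest, with points for libraries and bars for mean and SD (n = 3). F1 lies between the parents for Bckdhb and Oxct1, where 129 is highest, and for Bcat2 and Mcee, where 129 is lowest. Abat is lowest and Pcca and Echs1 are highest in F1.

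Acat1 was counted under the leucine branch alone. Of the 8 genes counted under the isoleucine and valine branches, none was higher and 2 were lower in 129 than in B6 (25.0% called, beside 37.5% of all genes). These were Acadsb, the dehydrogenase of the isoleucine branch (chromosome 7, 138554115 to 138589725), with 45.3 ± 0.570 RPKM in F1, 42.9 ± 1.82 RPKM in 129 and 46.8 ± 0.668 RPKM in B6 (log2 difference of 129 from B6 -0.12, SE 0.04, adjusted p = 0.0335), and Abat. The Acadsb call was lost in 7 of 16 other settings. Hibch and Hibadh, the hydrolase and dehydrogenase that take valine carbon from hydroxyisobutyryl-CoA to methylmalonate semialdehyde, did not pass in any comparison. Hibch averaged 119 ± 2.94 RPKM in F1, 115 ± 7.57 RPKM in 129 and 129 ± 8.78 RPKM in B6, and Hibadh 174 ± 5.49 RPKM in F1, 171 ± 4.65 RPKM in 129 and 192 ± 16.7 RPKM in B6. Acad8, isobutyryl-CoA dehydrogenase, with 18.8 ± 0.761 RPKM in F1, 20.4 ± 0.501 RPKM in 129 and 20.04 ± 0.953 RPKM in B6, did not pass in any comparison. The same held for the X-linked Hsd17b10, a dehydrogenase of the isoleucine branch, with 94.9 ± 12.9 RPKM in F1, 88.7 ± 4.13 RPKM in 129 and 102 ± 7.82 RPKM in B6.

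In the same branches, the F1 stood outside both parents for 3 of the 8 genes. Over all genes tested, F1 lay above all 6 parental libraries for 5.72% and below all of them for 9.70%. Echs1, short-chain enoyl-CoA hydratase (chromosome 7, 147291622 to 147302322), had 316, 296 and 282 RPKM in F1 libraries, 234, 243 and 253 RPKM in 129 libraries and 256, 243 and 262 RPKM in B6 libraries. The F1 libraries were above all parental ones, and the parents overlapped. Echs1 was higher in F1 than in B6 (log2 difference 0.23, SE 0.05, adjusted p = 0.00932), than in 129 (0.29, SE 0.05, adjusted p = 0.00306) and than the mid-parent value (0.26, SE 0.05, adjusted p = 0.00346). Aldh6a1, which makes propionyl-CoA from methylmalonate semialdehyde (chromosome 12, 85771668 to 85791900), averaged 170.5 ± 8.44 RPKM in F1, 145 ± 1.25 RPKM in 129 and 151 ± 3.03 RPKM in B6. It was higher in F1 than in B6 (0.17, adjusted p = 0.0148), than in 129 (0.23, adjusted p = 0.00358) and than the mid-parent value (0.20, adjusted p = 0.00459). Aldh6a1 shares 99 exon bases (2.96%) with Ccdc176 on the opposite strand, a gene with a mean of 2.11 RPKM.

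Abat went the other way. It encodes the aminotransferase best known for breaking down the neurotransmitter GABA, which also acts on the amino acid counterpart of methylmalonate semialdehyde (chromosome 16, 8513522 to 8621660). It had 5.64, 5.27 and 5.78 RPKM in F1 libraries, 9.09, 8.90 and 8.89 RPKM in 129 libraries and 10.7, 9.18 and 11.1 RPKM in B6 libraries. No groups overlapped, and F1 was lowest. The F1 mean was 0.539 of the B6 mean (log2 difference -0.78, SE 0.06, adjusted p = 1.4e-05) and 0.621 of the 129 mean (-0.60, SE 0.06, adjusted p = 7.75e-05). Against the mid-parent value the difference was -0.69 (SE 0.05, adjusted p = 3.82e-05), the furthest from 0 among the 31 genes. The smaller difference of 129 from B6 passed (-0.18, SE 0.06, adjusted p = 0.0461), and this call was lost in 11 of 16 other settings.

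Propionyl-CoA carboxylase, which also needs biotin, has an alpha subunit encoded by Pcca and a beta subunit encoded by Pccb. Pcca (chromosome 14, 122933550 to 123289166) had 122, 114 and 117 RPKM in F1 libraries, 91.0, 94.6 and 95.6 RPKM in 129 libraries and 88.6, 87.6 and 85.6 RPKM in B6 libraries. The F1 libraries were above all parental libraries. Pcca was 1.35-fold higher in F1 than in B6 (log2 difference 0.43, SE 0.04, adjusted p = 4.02e-05), 1.26-fold higher than in 129 (0.32, SE 0.04, adjusted p = 0.000269) and higher than the mid-parent value (0.38, SE 0.04, adjusted p = 9.19e-05), while 129 did not pass against B6 (0.10, SE 0.04, adjusted p = 0.074). Pccb (chromosome 9, 100882457 to 100935294) had 70.6, 70.5 and 68.0 RPKM in F1 libraries, 55.0, 56.5 and 58.2 RPKM in 129 libraries and 70.3, 67.0 and 71.5 RPKM in B6 libraries. Here 129 was below both others, and F1 and B6 overlapped. Pccb was lower in 129 than in B6 (-0.29, SE 0.04, adjusted p = 0.000247) and higher in F1 than in 129 (0.30, SE 0.04, adjusted p = 0.000496). The ratio of Pcca to Pccb was 1.69 ± 0.0634 in F1, 1.66 ± 0.0146 in 129 and 1.26 ± 0.0565 in B6 (SD, n = 3 each). F1 and 129 overlapped and both lay above B6.

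Mcee, methylmalonyl-CoA epimerase (chromosome 7, 71537657 to 71557005), had 54.3, 51.7 and 50.4 RPKM in F1 libraries, 38.2, 39.0 and 42.8 RPKM in 129 libraries and 67.6, 57.5 and 73.6 RPKM in B6 libraries. The groups did not overlap, and F1 lay between the parents. Mcee was lower in 129 than in B6, at 0.604 of its level (log2 difference -0.71, SE 0.08, adjusted p = 5.65e-05), and lower in F1 than in B6 (-0.33, SE 0.08, adjusted p = 0.0104). Its F1 level differed by 0.02 (SE 0.07, adjusted p = 0.858) from the mid-parent value. Mut, the cobalamin-dependent methylmalonyl-CoA mutase that follows it (Mmut in newer annotation, chromosome 17, 41071634 to 41098938), had 53.5, 52.0 and 55.2 RPKM in F1 libraries, 54.8, 53.2 and 55.5 RPKM in 129 libraries and 43.2, 42.5 and 44.6 RPKM in B6 libraries. F1 and 129 overlapped above B6. Mut was higher than in B6 in 129 (0.32, SE 0.04, adjusted p = 9.61e-05) and in F1 (0.30, SE 0.04, adjusted p = 0.00032), so the epimerase and the mutase, which act in sequence, were called in opposite directions. The promoter windows of Mcee, at chr7:64392372-64392621, and Pcca, at chr14:122534078-122534327, both on the plus strand, are shown for the propionate gene with the largest strain difference and the one highest in F1. They hold 1 and 2 NFI half-sites, in capitals, and no nuclear receptor half-site.
Mcee: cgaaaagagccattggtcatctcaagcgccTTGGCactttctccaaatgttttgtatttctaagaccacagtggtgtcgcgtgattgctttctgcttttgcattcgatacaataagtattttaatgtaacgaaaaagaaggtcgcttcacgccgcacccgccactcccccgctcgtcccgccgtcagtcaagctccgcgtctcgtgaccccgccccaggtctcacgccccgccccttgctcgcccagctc
Pcca: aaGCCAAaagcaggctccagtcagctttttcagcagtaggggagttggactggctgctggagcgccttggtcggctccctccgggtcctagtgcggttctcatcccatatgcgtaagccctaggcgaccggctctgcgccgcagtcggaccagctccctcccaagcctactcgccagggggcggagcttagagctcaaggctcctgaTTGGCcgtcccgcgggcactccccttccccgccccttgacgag

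Differences in the cobalamin-handling genes were smaller. Mmab, the adenosyltransferase that makes the cofactor of the mutase (chromosome 5, 114881043 to 114894036), averaged 33.0 ± 1.53 RPKM in F1, 32.6 ± 0.916 RPKM in 129 and 38.4 ± 0.784 RPKM in B6. It was lower than in B6 in F1 (-0.21, adjusted p = 0.00435) and in 129 (-0.23, adjusted p = 0.00188). Mmachc, which processes cobalamin in the cytosol (chromosome 4, 116375039 to 116380990), averaged 20.5 ± 0.679 RPKM in F1, 18.1 ± 0.826 RPKM in 129 and 18.8 ± 0.915 RPKM in B6. It was higher in F1 than in 129 (0.17, adjusted p = 0.0239) and than the mid-parent value (0.15, adjusted p = 0.0327), and these calls were lost in 4 and 6 of 15 other settings. Mmaa, the chaperone of the mutase, averaged 6.46 ± 0.546 RPKM in F1, 5.93 ± 0.378 RPKM in 129 and 5.79 ± 0.422 RPKM in B6 and did not pass in any comparison.

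The other 3 genes belong to neighbouring routes, Gcdh to lysine breakdown and the aldehyde dehydrogenases Aldh2 and Aldh9a1 to the clearance of aldehydes and to carnitine synthesis. None passed between 129 and B6. Aldh2 was the most abundant of the 31 genes, with 319 ± 16.2 RPKM in F1, 295 ± 18.5 RPKM in 129 and 324 ± 17.2 RPKM in B6. Gcdh averaged 22.2 ± 0.473 RPKM in F1, 20.8 ± 0.756 RPKM in 129 and 23.6 ± 3.64 RPKM in B6. Aldh9a1 averaged 97.3 ± 1.81 RPKM in F1, 87.5 ± 2.93 RPKM in 129 and 89.0 ± 4.25 RPKM in B6, and was higher in F1 than in 129 (0.15, adjusted p = 0.0313) and than the mid-parent value (0.14, adjusted p = 0.0277). These calls were lost in 4 and 6 of 15 other settings.

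Across the 31 genes, F1 was compared with each parent and with the mid-parent value. These comparisons share the F1 libraries, and their values are set side by side without a test between them. Against B6, 9 genes were higher and 6 lower in F1 (48.4% of the 31, against 31.2% of all genes, of which 11.0% were higher and 20.2% lower), and after median-of-ratios rescaling 12 were higher and 4 lower. Against 129, 10 were higher and 4 lower (45.2%, against 27.7% of all genes, of which 12.0% were higher and 15.7% lower). Against the mid-parent value, 10 were higher, namely Bckdha, Bckdk, Auh, Echs1, Aldh6a1, Pcca, Pccb, Mut, Mmachc and Aldh9a1, and 2 were lower, Bcat1 and Abat (38.7%, against 23.2% of all genes, of which 8.35% were higher and 14.8% lower). The lower count was 1 without F1 replicate 3 (1123 of all 11523 genes then tested) and 4 without B6 replicate 2 (1930 of 11444). The median log2 difference was -0.02 against B6, 0.09 against 129 and 0.04 against the mid-parent value, beside -0.04, -0.01 and -0.03 over all genes. Of all genes called, 35.3% were higher in F1 against B6 and 36% against the mid-parent value, and 54.6% and 53.4% after rescaling.

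F1 lay above all 6 parental libraries for 6 genes, Bckdha, Bckdk, Echs1, Aldh6a1, Pcca and Aldh9a1, which is 19.4% of the 31, against 5.72% of all genes. It lay below all of them for Abat alone (3.23%, against 9.70%). Each pair of groups differed for 3 genes, Bckdhb, Abat and Mcee (9.68%, against 7.90% of all genes), with Abat resting on the 129 minus B6 call that was lost in 11 of 16 other settings. The 31 genes together summed to 2578 to 2751 RPKM in F1, 2390 to 2529 RPKM in 129 and 2434 to 2711 RPKM in B6. The summed level of B6 thus overlapped those of F1 and of 129, while F1 lay above 129.

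Other genes that feed or extend the pathway were counted from a list of 37, of which 35 were tested. In 129 minus B6, 9 were higher and 12 lower (60.0%, against 37.5% of all genes), and in F1 minus mid-parent 4 were higher and 6 lower (28.6%, against 23.2%). The 6 with the largest differences between 129 and B6 were the mitochondrial aldehyde dehydrogenase Aldh1b1, the propionyl-CoA synthetase Acss3, the ketone body enzyme Bdh1, the medium-chain acyl-CoA dehydrogenase Acadm, the succinyl-CoA ligase subunit Sucla2 and the peroxisomal enzyme Ehhadh. Acss3, which makes propionyl-CoA from propionate, averaged 46.1 ± 2.64 RPKM in F1, 35.9 ± 2.32 RPKM in 129 and 60.3 ± 4.97 RPKM in B6 (log2 difference of 129 from B6 -0.73, SE 0.07, adjusted p = 1.47e-05). Sucla2, which uses succinyl-CoA, averaged 186 ± 10.8 RPKM in F1, 139.6 ± 6.23 RPKM in 129 and 219 ± 16.1 RPKM in B6 (-0.64, SE 0.06, adjusted p = 2.33e-05). Acadm averaged 480.5 ± 13.3 RPKM in F1, 352 ± 8.76 RPKM in 129 and 572 ± 41.7 RPKM in B6 (-0.70, SE 0.06, adjusted p = 6.42e-06). In these 3 genes, as in Bcat2 and Mcee, F1 lay between the parents and 129 was lowest.

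Of the others, Aldh1b1 averaged 1.41 ± 0.242 RPKM in F1, 0.710 ± 0.0684 RPKM in 129 and 1.92 ± 0.278 RPKM in B6 (-0.77, SE 0.09, adjusted p = 7.67e-05). Bdh1 was the only one of the 6 that was higher in 129, with 1.00 ± 0.0845 RPKM in F1, 2.16 ± 0.142 RPKM in 129 and 0.928 ± 0.186 RPKM in B6 (0.72, SE 0.08, adjusted p = 4.93e-05). Ehhadh was lowest in F1, with 53.9 ± 1.55 RPKM in F1, 70.5 ± 5.20 RPKM in 129 and 99.8 ± 15.0 RPKM in B6. It was lower in 129 than in B6 (-0.49, SE 0.10, adjusted p = 0.00243) and lower in F1 than the mid-parent value (-0.62, SE 0.08, adjusted p = 0.00061). Dld, the dehydrogenase shared by the ketoacid complexes, averaged 284 ± 6.53 RPKM in F1, 249.6 ± 6.60 RPKM in 129 and 280.4 ± 10.5 RPKM in B6, and was lower in 129 (-0.17, SE 0.05, adjusted p = 0.0152). Slc25a44, the mitochondrial carrier that brings in branched-chain amino acids, averaged 47.4 ± 0.924 RPKM in F1, 43.8 ± 1.16 RPKM in 129 and 49.3 ± 0.862 RPKM in B6, and was also lower in 129 (-0.17, SE 0.04, adjusted p = 0.00546). Klf15, a transcription factor known to control genes of this pathway in muscle and heart, averaged 10.4 ± 0.705 RPKM in F1, 10.5 ± 0.986 RPKM in 129 and 11.3 ± 1.31 RPKM in B6 and did not pass in any comparison (129 minus B6 -0.09, SE 0.09, adjusted p = 0.435).

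Whole cultures were sequenced, so fewer cells of a type and less RNA per cell cannot be told apart. Some markers of other cells differed between the groups, and genes of the same list did not always move together. Progenitor markers (5 genes) summed to 306.8 to 386 RPKM in F1, 439.9 to 459.6 RPKM in 129 and 420.6 to 566 RPKM in B6, a sum in which Ly6a prevails. Of the 4 tested, Pdgfra (1.85-fold, adjusted p = 9.35e-06) and Cd34 (1.40-fold, adjusted p = 8.6e-06) were higher in 129 than in B6 and none was lower, and Dpp4 was under 1 RPKM in every library. Smooth muscle markers (4 genes) summed to 98.7 to 105 RPKM in F1, 126.5 to 135 RPKM in 129 and 126 to 140.2 RPKM in B6, with Myh11 and Actg2 lower in 129 than in B6. All 4 tested genes of each of these lists were lower in F1 than the mid-parent value, where 14.8% of all genes were lower. Of the 8 adipocyte genes, Lipe and Pparg were higher and Cidec and Lep lower in that comparison.

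Thermogenic markers (6 genes) summed to 123 to 133 RPKM in F1, 102 to 109.7 RPKM in 129 and 67.4 to 70.3 RPKM in B6. Ucp1 and Cidea were higher in 129 than in B6, while Cox8b (0.532 of the B6 level), Ppargc1a (0.625) and Prdm16 (0.670) were lower. Endothelial markers (4 genes) summed to 5.52 to 5.97 RPKM in F1, 9.19 to 9.61 RPKM in 129 and 7.21 to 7.35 RPKM in B6. Eng made up most of this sum and was higher in 129 (7.99 RPKM, against 4.37 RPKM in B6), whereas Pecam1 was lower (0.441 of the B6 level). Cdh5 (0.465 of the B6 level) and Kdr (0.73) were under 1 RPKM in every library and were not tested. Their 129 libraries also lay below all B6 libraries. Macrophage markers (5 genes) summed to 9.41 to 14.6 RPKM in F1, 5.53 to 11.2 RPKM in 129 and 12.5 to 14.7 RPKM in B6, with C1qa and C1qb lower in 129 than in B6 and none higher. Mast cell markers (4 genes) summed to 1.95 to 2.26 RPKM in F1, 1.43 to 2.07 RPKM in 129 and 2.40 to 2.68 RPKM in B6, with Tpsb2 at 0 throughout and Cpa3, the only one tested, lower in 129 than in B6. The part of these shifts in the differences of the 31 genes was not tested.

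Single libraries also moved many of the 31 genes together. B6 replicate 2, the shallowest library, was the lowest of its group for 26 of the 31 genes (83.9%, against 40.5% of all genes), and B6 replicate 3 the highest for 22 (71.0%, against 30.8%). F1 replicate 1 was the highest of its group for 20 (64.5%, against 40.2%), and 129 replicate 3 for 19 (61.3%, against 32.3%). Without B6 replicate 2, 5 of the 31 genes were higher and 13 lower in 129 than in B6, beside 1857 higher and 2533 lower of all 11444 genes then tested. For 1 gene and 3 libraries per group the smallest two-sided p of an exact permutation test is 0.1, so calls rest on the estimate of spread that limma shares across genes.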

How the data were processed

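Poly(A) RNA of 9 libraries was compared, 3 each of F1, 129 and B6. The deposited values are RPKM, 1 per gene and library, made by the authors with STAR and genome build mm9, per the submitters' processing notes. Not given in the sources used here were the read counter, the annotation release and the use of strand. Multiplied by exon length in kilobases, the RPKM of a library summed to 1000000 over 24015 rows, and multiples of the value of 1 read gave the depth, with 100.0% of non-zero values whole within 0.1 read. Of 24013 symbols, 2 stood on more than 1 row. Text in 5 unnamed columns, on 31 rows, was not used.

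Genes that reached an RPKM of 1 in 3 or more libraries were analysed as log2(RPKM + 1) with limma 3.58.1 (R 4.3.3), with a mean-variance trend and 1 mean per group. The 4 contrasts set 129 against B6, and F1 against B6, against 129 and against the average of the parental log2 levels. P-values are two-sided, with Benjamini-Hochberg adjustment over 11542 genes and a threshold of 0.05. The procedure was tested on simulated data. The members and lists were chosen with earlier results of these data known. All 31 genes are named. Values of every library are given for those that passed a moderated F-test over the groups and had a highest group mean of at least 1.2 times the lowest (15 of 31, against 34.8% of all genes). Of the other pathway genes, the 6 with the largest difference among those that passed in 129 minus B6 are named, with Klf15, Dld and Slc25a44. SDs are over 3 libraries, SEs are from limma, and reads are not independent molecules. Alternatives were another pseudocount, other filters, median-of-ratios rescaling, the replicate number as a block, the parental libraries alone, each library left out, and voom on the recovered reads, the last chosen after seeing the data.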

Additional observations from a re-analysis of the deposited data

How the results depend on the processing

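The 31 genes gave 58 calls over the 4 contrasts, and these were recomputed in 882 pairs of call and setting. In 803 the call was kept, in 79 it was lost and in 0 it reversed. Losses touched 16 calls, among them Abat (11 of 16 settings), Acadsb and Mccc1 (7 each) in 129 minus B6, and Ivd (8 of 15) in F1 minus B6. Values without a call and of at least 0.1 on the log2 scale gained one in 33 pairs, over 18 values. Another 40 values without a call and under 0.1 were counted apart and passed in 2 pairs. Where such a value is printed, its sign is not read as a direction.

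Leaving out 1 library at a time, the genes called higher and lower numbered 5 to 7 and 8 to 13 in 129 minus B6, 8 to 9 and 4 to 9 in F1 minus B6, 7 to 11 and 3 to 5 in F1 minus 129, and 7 to 12 and 1 to 4 in F1 minus mid-parent. Genes lower in F1 minus mid-parent numbered 2, and 1 under the filter of 5 RPKM, which Bcat1 did not pass. With voom the counts were 7 and 12, 10 and 6, 11 and 4, and 11 and 2 in the same order of contrasts. Rescaling by median-of-ratios size factors gave 8 higher and 8 lower in 129 minus B6 and 12 and 4 in F1 minus B6.

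The replicate numbers were not taken to pair the libraries, since no label tells what a shared number means. Deviations of same-numbered libraries correlated at 0.0664, 0.125 and 0.215 between 129 and B6, at -0.046, 0.127 and -0.192 between F1 and 129, and at 0.129, 0.0223 and -0.0919 between F1 and B6. Those of different-numbered libraries ran from -0.174 to 0.052, from -0.127 to 0.171 and from -0.203 to 0.231 in the same order. Between 129 and B6 every same-numbered value was the higher, so these values do not settle whether libraries were paired. With the replicate block, 7 genes were higher and 12 lower in 129 minus B6, 10 and 5 in F1 minus B6, 10 and 4 in F1 minus 129, and 9 and 2 in F1 minus mid-parent. The quasi-likelihood test of edgeR and DESeq2, planned for recovered reads, were not run, and voom was run on these reads instead. Groups of 3 limit precision, B6 replicate 2 was the shallowest library, and Bcat1 and Mmaa have the fewest reads.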
